A study of Mus musculus with 22 samples.

Results

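The RNA of mouse retinal progenitor cells (RPCs) from embryonic day 12.5 was set against that of Müller glia from young untreated mice, gene by gene across the whole transcriptome. The contrast holds every RNA library of these 2 groups, 3 from RPCs and 2 from young Müller cells, of 10 RNA libraries and 22 libraries in all. All mice were C57BL/6. Per the labels, the young Müller cells came from mice aged 2 to 3 months that carried an Rlbp1-GFP reporter, in which a green fluorescent protein driven by Rlbp1 marks the cells for flow sorting. The RPCs were collected from embryos, and no sort is named for them. Because the young cells were selected by this reporter, Rlbp1 is no independent finding between the groups. The young libraries are described as biological replicates and the RPC libraries as replicates only. The p-values rest on a spread estimated over all 10 RNA libraries together. For RPCs, whether that spread covers separate embryos is not stated.

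RPCs are the dividing, multipotent cells of the embryonic retina. They give rise to the retinal neurons in a fixed order and, last, to Müller glia. Müller glia span the mature retina, take up glutamate and GABA, buffer potassium and water and supply neurons with metabolites, and they keep a number of progenitor transcription factors throughout life.

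The RPC libraries held 14520423, 11067405 and 11442918 counts, and the young libraries 15202738 and 10149390. Between 21863 and 22453 genes had a count in the RPC libraries, against 13913 and 14919 in the young ones. Log2 levels correlated across genes at Pearson r 0.993 to 0.994 in the RPC pairs, against 0.884 in the young pair. Between 1 and 24 genes had at least 20 counts in one library and 0 in the other in the RPC pairs, against 2712 genes in the young pair. Of detected genes, 28.7% to 29.5% had under 10 counts in the RPC libraries, against 6.35% and 5.52% in the young ones. A count of 0 in young cells is therefore given with a bound on the fold, and whether it marks a silent gene or sparse sampling was not tested. Fewer cells of a type and less RNA per cell cannot be told apart in such bulk libraries. Levels are given in CPM, the counts of a gene scaled by its library's total, in each library. Differences are fitted log2 changes, RPC minus young, ± standard error, with the adjusted p of edgeR. The fit scales libraries by TMM, which places fitted changes 0.13 below the log2 ratio of plain CPM.

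Most genes tested differed. Of 18931 genes tested among 44792 in the table, 11508 were called at an adjusted p under 0.05 (60.8%). Among them, 6795 were higher in RPCs (35.9%) and 4713 were lower (24.9%). At least 4-fold changes were called for 6510 genes (34.4%), with 4046 higher (21.4%) and 2464 lower (13%). This balance turned with a filter of 5 CPM in 2 libraries, which left 1918 higher and 2061 lower. The median log2 change over all genes was 0.30, with quartiles of -1.03 and 2.13. Of the genes tested, 3487 had no count in either young library, and 2647 of these were called higher. Most of those were low in RPCs as well: their median was 1.52 CPM, 2153 averaged under 5 CPM there, and 162 averaged at least 20 CPM. In the libraries of aged mice, 102 of those 162 averaged under 1 CPM. In the other direction 444 genes had no count in any RPC library, and 195 of them were called lower.

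**Figure D1:**
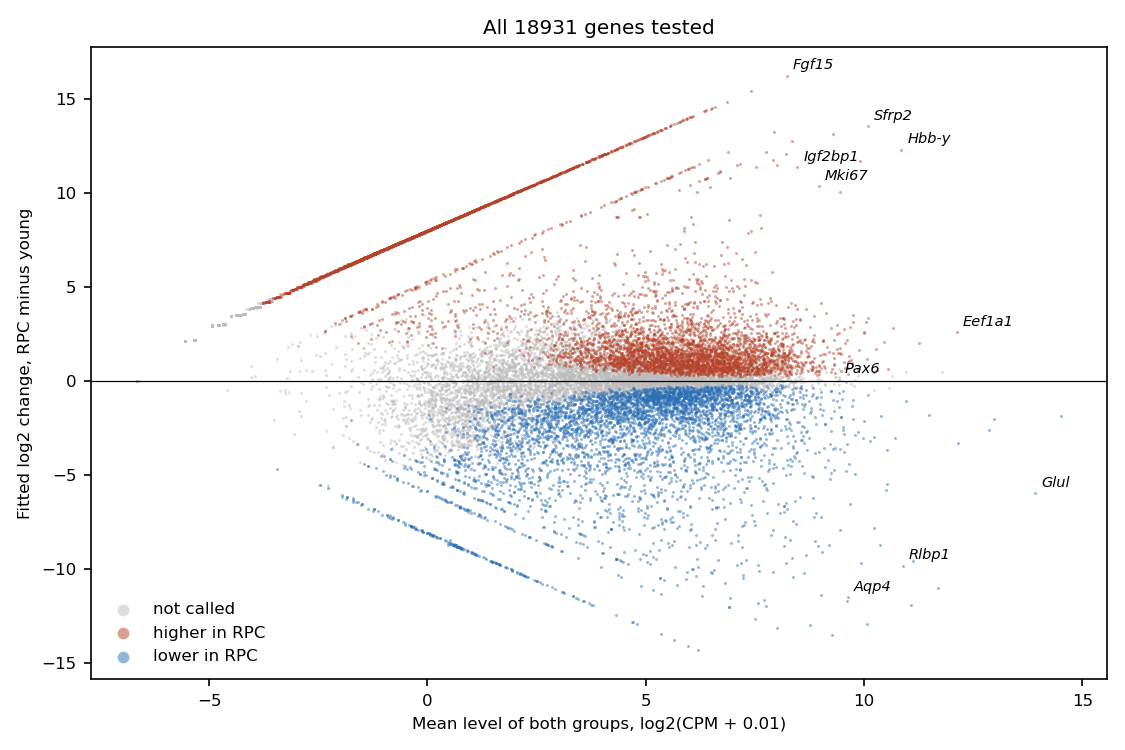
Fitted log2 change, RPC minus young, against mean level (log2 of CPM + 0.01) for the 18931 genes tested, with called genes coloured. The straight upper edge is made of the 3487 genes without a count in young cells and the lower edge of the 444 genes without a count in RPCs, whose fitted values are no measured folds.

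Genes of cell division were far higher in RPCs. All 30 mitosis genes were higher in RPCs, as were 29 of 30 DNA replication genes, beside 35.9% of all genes tested. Their median log2 changes were 8.83 for mitosis and 3.24 for replication, beside 0.30 over all genes. The mitosis value sets genes at 0 in both young libraries to their bound and keeps the fitted change of the others. Mki67, the proliferation antigen, had 942, 994 and 1049 CPM in RPCs, against 0.132 and 1.48 CPM in young Müller cells (log2 10.34 ± 0.93, adjusted p = 2.19e-05). Top2a, the topoisomerase that untangles replicated chromosomes, had 1242, 1189 and 1289 CPM in RPCs, against 0.132 and 0.0985 CPM in young cells, a ratio of 10485 with a 95% counting interval of 3588 to 50845. The groups lay far apart in every library for both genes.

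Genes of the mitotic kinases and cyclins had almost no reads in young cells. Ccnb1, the cyclin that drives entry into mitosis, had 239, 232 and 220.5 CPM in RPCs and 0 in both young libraries, so it was at least 1954-fold higher. Cdk1, its kinase partner, had 163, 161 and 164 CPM in RPCs, against 0.0658 and 0.0985 CPM in young cells. Bub1, a kinase of the spindle checkpoint, had 173, 185 and 194 CPM in RPCs and 0 in both young libraries, at least 1549-fold higher. Aurka, the spindle pole kinase, had 89.2 to 104 CPM in RPCs and at most 0.0985 CPM in young cells.

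Replication genes kept more signal in young glia. Mcm5, a subunit of the MCM helicase that unwinds DNA, had 240, 258 and 234 CPM in RPCs, against 7.56 and 6.996 CPM in young cells (log2 4.93 ± 0.26, adjusted p = 9.67e-07). Mcm2, a further helicase subunit, changed by log2 3.58 ± 0.20. Rrm1, the large subunit of ribonucleotide reductase, had 468 to 471 CPM in RPCs, against 50.1 and 43.0 CPM in young cells (log2 3.20 ± 0.13). Rrm2, its small subunit, whose expression follows S phase, had 339, 327 and 348 CPM in RPCs and 0 in both young libraries, at least 2857-fold higher. Gins4, of the helicase-activating complex, was the replication gene that did not pass (47.6 CPM on average in RPCs and 36.2 CPM in young cells; log2 0.27, 95% interval -0.06 to 0.59, adjusted p = 0.135). Dtl, a ubiquitin ligase adaptor that acts during replication, and Hells, a chromatin remodeller of dividing cells, had 0 counts in both young libraries and were at least 1607-fold and 1512-fold higher. Ccnd1, the G1 cyclin of the early retina, had 1523, 1343 and 1515 CPM in RPCs, against 178 and 184 CPM in young cells (log2 2.89 ± 0.20), while Ccnd3 was lower in RPCs (log2 -1.32 ± 0.12). Cdkn1b, which encodes the cell cycle inhibitor p27, was also lower, with 118, 105 and 125 CPM in RPCs, against 363 and 354 CPM in young cells (log2 -1.75 ± 0.12, adjusted p = 4.51e-06). It was the only lower gene of 6 such inhibitors tested (16.7%, beside 24.9% of all genes), and 2 were higher (33.3%, beside 35.9%). The higher ones were Cdkn1c (log2 1.33 ± 0.49) and Cdkn2d (log2 1.12 ± 0.36), and each lost its call in 5 of 12 other settings.

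Promoter sequences of the division genes were read because these genes moved together. They come from RefSeq on build GRCm38.p6 and run from 250 bases before to 50 bases after each gene's start, 5′ to 3′ on the gene's strand. Such a window was found for 11643 of the 18931 genes, and for 24 of 30 genes in each of the replication and mitosis lists. The E2F consensus, the binding letters of the factors that switch on S phase genes, was searched as TTTCCCGC, TTTCGCGC, TTTGCCGC or TTTGGCGC on either strand. It was found in 11 of 24 replication promoters (45.8%), in 1 of 24 mitosis promoters (that of Cdk1, 4.17%), in 5.03% of promoters of genes at least 4-fold higher, in 1.9% of those at least 4-fold lower and in 3.84% of all. The windows of Mcm5 and Mcm6 are shown for these matches, which are in capitals. Mcm5 holds overlapping matches of both strands that begin 153 and 149 bases before the start, and Mcm6 holds matches that begin 110, 106 and 47 bases before it.
Mcm5, chr8:75109259-75109558, plus strand: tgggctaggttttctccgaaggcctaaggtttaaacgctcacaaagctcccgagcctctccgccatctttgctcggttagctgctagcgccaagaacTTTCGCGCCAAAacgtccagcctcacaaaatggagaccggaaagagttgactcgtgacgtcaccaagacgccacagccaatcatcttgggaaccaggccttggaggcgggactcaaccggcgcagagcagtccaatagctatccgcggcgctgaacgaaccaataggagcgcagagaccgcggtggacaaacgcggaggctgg
Mcm6, chr1:128359656-128359955, minus strand: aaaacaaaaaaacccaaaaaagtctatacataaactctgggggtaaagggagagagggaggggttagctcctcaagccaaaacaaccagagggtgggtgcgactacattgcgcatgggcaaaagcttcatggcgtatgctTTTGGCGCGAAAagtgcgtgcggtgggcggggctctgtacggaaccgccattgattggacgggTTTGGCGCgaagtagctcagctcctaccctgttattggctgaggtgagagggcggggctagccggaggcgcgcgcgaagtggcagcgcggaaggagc

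The CCAAT box, the binding letters of the factor NF-Y, was searched as CCAAT or ATTGG. It was found in 19 of 24 mitosis promoters (79.2%) and 16 of 24 replication promoters (66.7%), beside 38.4% of all, 36.9% of those at least 4-fold higher and 36.5% of those at least 4-fold lower. The share among all changed genes thus lay near the background, and the share in the division lists above it. Photoreceptor genes, which were lower in RPCs, held it in 64.3% of windows, and Müller glia genes in 46.2%. Ccnb1 and Cdk1 are shown with their matches in capitals. A match is a run of letters and not a measured binding site.
Ccnb1, chr13:100786437-100786736, minus strand: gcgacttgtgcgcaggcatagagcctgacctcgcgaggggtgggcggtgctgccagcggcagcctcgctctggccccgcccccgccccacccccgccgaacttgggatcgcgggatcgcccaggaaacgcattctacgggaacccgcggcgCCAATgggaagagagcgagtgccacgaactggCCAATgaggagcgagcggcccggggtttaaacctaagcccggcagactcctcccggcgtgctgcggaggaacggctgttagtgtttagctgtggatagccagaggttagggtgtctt
Cdk1, chr10:69352863-69353162, minus strand: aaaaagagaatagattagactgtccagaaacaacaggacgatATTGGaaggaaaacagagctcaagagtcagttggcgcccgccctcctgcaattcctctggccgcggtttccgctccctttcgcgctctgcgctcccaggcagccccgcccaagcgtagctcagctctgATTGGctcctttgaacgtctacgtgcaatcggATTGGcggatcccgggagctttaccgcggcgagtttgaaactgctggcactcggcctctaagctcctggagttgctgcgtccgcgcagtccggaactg

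**Figure D2:**
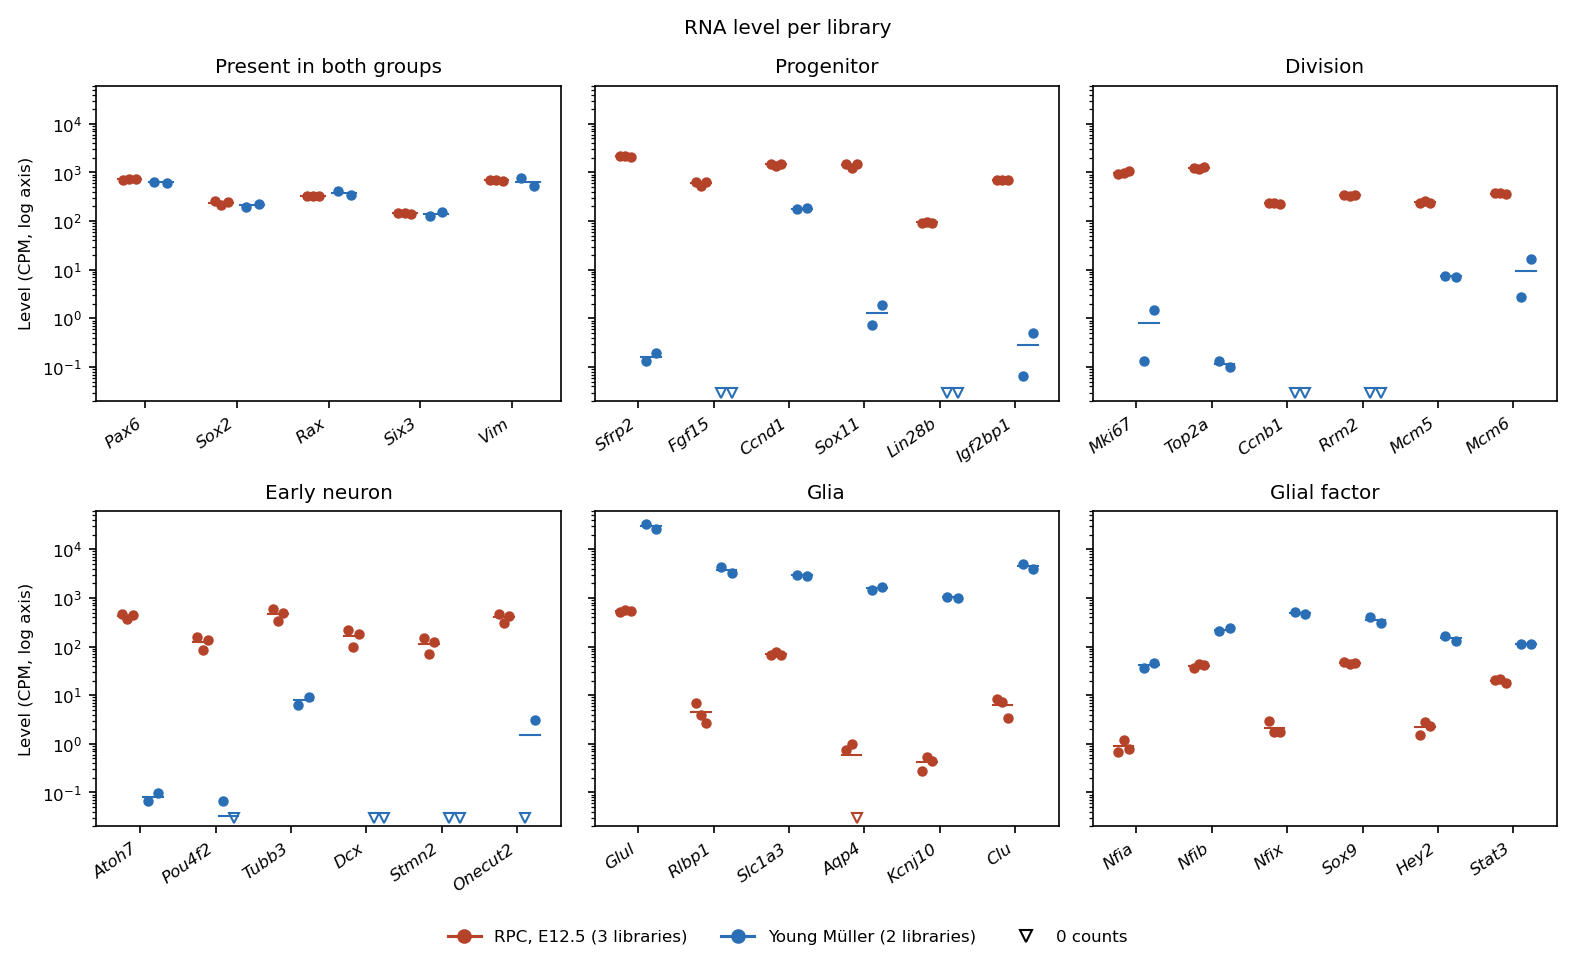
CPM in each library on a log axis for genes of 6 roles, with RPC libraries on the left and young Müller libraries on the right of each gene. Points are libraries, bars are group means and open triangles are libraries with 0 counts. The genes of the first panel overlap or lie close together, while Sfrp2 (2115 to 2232 CPM in RPCs, 0.132 and 0.197 CPM in young cells) and Glul (519 to 551 CPM in RPCs, 33663 and 26680 CPM in young cells) lie far apart.

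Most genes of the cytosolic ribosome and of ribosome biogenesis were higher in RPCs than in young cells. Of 84 cytosolic ribosomal protein genes tested, of 88 in the table, 72 were higher in RPCs and 0 lower. They summed to 20300, 20910 and 19340 CPM in RPCs, against 4638 and 2640 CPM in young cells, and their median log2 change was 2.36. In Müller libraries from NMDA-treated mice they summed to 14910, 13110 and 13380 CPM, and in those from aged mice to 3037 and 2813 CPM. Mitochondrial ribosomal protein genes were higher in RPCs for 39 of 77 tested (50.6%, beside 35.9% of all genes) and lower for 3 (3.9%, beside 24.9%). Ribosomal protein genes have near-identical pseudogenes, so counts of single members are uncertain. Eef1a1, the main translation elongation factor, had 7562, 8180 and 7494 CPM in RPCs, against 1521 and 840 CPM in young cells (log2 2.58 ± 0.25, adjusted p = 3.66e-05). Of 20 ribosome biogenesis genes 17 were higher and 0 lower. Npm1, nucleophosmin of the nucleolus, changed by log2 3.84 ± 0.12, with 656 to 680 CPM in RPCs and 44.5 and 40.5 CPM in young cells. Fbl, the methyltransferase fibrillarin, had 38.9, 42.4 and 39.8 CPM in RPCs, against 0.0658 and 0.0985 CPM in young cells, a ratio of 510 with a 95% counting interval of 141 to 4213. It stood at 5.13 and 3.97 CPM in Müller libraries from aged mice and at 10.2 to 12.5 CPM in those from NMDA-treated mice.

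RNA processing and protein folding genes moved the same way. Of 20 splicing genes 19 were higher in RPCs and 0 lower, with a median log2 change of 1.55. Srsf1, a splicing activator, had 1064, 1004 and 1103 CPM in RPCs, against 213 and 218 CPM in young cells (log2 2.16 ± 0.10). Hnrnpa1, a splicing repressor, changed by log2 3.29 ± 0.16. Among symbol families, 19 of 22 nucleoporins of the nuclear pore (86.4%), 7 of 8 CCT chaperonin subunits tested (87.5%) and 25 of 39 proteasome subunits tested (64.1%) were higher, beside 35.9% of all genes. In these families 0, 0 and 3 were lower. Hsp90ab1, a cytosolic chaperone, had 2334, 2363 and 2253 CPM in RPCs, against 627 and 391 CPM in young cells (log2 2.05 ± 0.21).

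Clustered histone genes, which are transcribed in S phase, summed to 14340, 14300 and 13750 CPM in RPCs, against 1821 and 1895 CPM in young cells. Of 67 tested, 57 were higher in RPCs and 3 lower. Members share long identical stretches, so the family is given as a sum.

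Some genes of the progenitor state were near 0 in young Müller glia, and others stood at like levels in both groups. Sfrp2, a secreted Wnt antagonist, had 2232, 2152 and 2115 CPM in RPCs, against 0.132 and 0.197 CPM in young cells (log2 13.54 ± 0.23). Fgf15, a growth factor of the embryonic retina, had 631, 533 and 630 CPM in RPCs and 0 in both young libraries, at least 5084-fold higher. Foxn4, a factor for amacrine and horizontal cell fates, had 186 to 218 CPM in RPCs, against 0.0658 and 0.0985 CPM in young cells, and Sox11, a factor of early neural cells, changed by log2 10.03 ± 0.57.

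Pax6, Sox2, Rax and Six3, transcription factors of the eye field and of stem cells, did not pass the test. Pax6 had 699, 751 and 750 CPM in RPCs, against 645 and 621 CPM in young cells (log2 0.08, 95% interval -0.29 to 0.45, adjusted p = 0.695). Sox2 had 257, 218 and 242 CPM in RPCs, against 194 and 230 CPM in young cells (log2 0.04, 95% interval -0.42 to 0.51). The eye-field gene Rax differed by log2 -0.35 (95% interval -0.83 to 0.13) and Six3, another, by log2 -0.08 (95% interval -0.47 to 0.31). These intervals leave room for changes under 2-fold in either direction. Six6, an eye-field paralogue of Six3, was higher in RPCs, with 352, 328 and 338 CPM, against 77.1 and 83.9 CPM in young cells (log2 1.95 ± 0.15). Vim, the intermediate filament vimentin of both radial cell types, stood at 699, 713 and 680 CPM in RPCs and at 769 and 533 CPM in young cells (log2 -0.03, 95% interval -0.43 to 0.36). Of the 20 progenitor genes as a list, 11 were higher in RPCs (55%, beside 35.9% of all genes) and 4 lower (20%, beside 24.9%). Lhx2, another eye-field gene, was called lower (log2 -1.48 ± 0.33), but at 0.813 to 1.66 CPM in RPCs and 3.62 and 2.96 CPM in young cells. It stood at 112 to 288 CPM in the aged and NMDA Müller libraries. Its span contains another annotated gene, and the call was lost in a fit of the 5 libraries alone (adjusted p = 0.0588).

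Heterochronic RNA-binding genes, which mark early developmental time and decline as tissues mature, were higher in RPCs for 10 of 11 members and lower for 0. The list summed to 2527, 2594 and 2530 CPM in RPCs, against 375 and 373 CPM in young cells. In the other Müller libraries its sum was far above that of young cells, at 2296 and 2367 CPM (aged) and 909 to 1318 CPM (NMDA). Lin28b, which blocks maturation of let-7 microRNAs, had 93.2, 95.2 and 93.5 CPM in RPCs and 0 in both young libraries, at least 794-fold higher. Lin28a was at least 211-fold higher. Igf2bp1, an mRNA-binding protein of embryonic tissue, had 717, 712 and 689 CPM in RPCs, against 0.0658 and 0.493 CPM in young cells (log2 11.35 ± 0.48, adjusted p = 3.26e-07). Hmga2, a chromatin protein of stem cells that let-7 represses, had 126, 162 and 127 CPM in RPCs, against 0 and 0.0985 CPM in young cells. Igf2bp2 and Mycn had nearly all their young signal in a single library, at 5.39 and 0.197 CPM and at 3.35 and 0 CPM in the young pair. Lin28b and Igf2bp1 reached at most 0.168 and 0.785 CPM in the aged and NMDA Müller libraries.

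Imprinted genes, expressed from 1 parental allele, were higher in RPCs for 13 of 18 tested (72.2%, beside 35.9% of all genes) and lower for 3 (16.7%, beside 24.9%). H19, a noncoding RNA of fetal growth, had 542, 826 and 590 CPM in RPCs, against 0.0658 and 0.0985 CPM in young cells. Igf2, its neighbour, did not pass, with 260, 413 and 275 CPM in RPCs and 522 and 297 CPM in young cells (log2 -0.52, 95% interval -1.34 to 0.31). Grb10, an adaptor that restrains insulin signalling, had 2032, 2020 and 1952 CPM in RPCs, against 159 and 205 CPM in young cells (log2 3.33 ± 0.17), and Plagl1, a zinc finger regulator, changed by log2 2.99 ± 0.21. Meg3, a noncoding RNA of the Dlk1 locus, was lower in RPCs, with 1.79, 3.25 and 1.14 CPM, against 8.81 and 15.96 CPM in young cells (log2 -2.72 ± 0.40).

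Genes of newborn neurons were counted in the RPC libraries. Of 24 neurogenic and early neuron genes, 21 were higher in RPCs and 1 lower. Atoh7, the factor that gives progenitors competence for retinal ganglion cells, had 478, 360 and 454 CPM in RPCs, against 0.0658 and 0.0985 CPM in young cells. Pou4f2, a ganglion cell factor, had 159, 83.0 and 135 CPM in RPCs, against 0.0658 and 0 CPM. Tubb3, a neuronal tubulin, had 582, 336 and 480 CPM in RPCs, against 6.25 and 9.36 CPM in young cells (log2 5.79 ± 0.44), and Dcx, a microtubule protein of migrating neurons, had 220, 96.6 and 185 CPM in RPCs and 0 in both young libraries. The second RPC library was the lowest of the RPC libraries for each of these genes, and the list summed to 3411, 2241 and 3100 CPM in RPCs, against 1676 and 768 CPM in young cells. Without that library 21 members were higher as well. Most of the young sum came from Btg2. Btg2, an antiproliferative gene that is also an immediate early gene, was the lower member (128, 100 and 122 CPM in RPCs, 1523 and 626 CPM in young cells; log2 -3.34 ± 0.34).

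Chromatin regulators were higher in RPCs for 20 of 25 members and lower for 4. Paralogues took opposite directions in the polycomb complexes, which silence developmental genes. Ezh2, the histone methyltransferase of dividing cells, had 279, 282 and 304 CPM in RPCs, against 32.3 and 37.3 CPM in young cells (log2 2.92 ± 0.15, adjusted p = 9.67e-07), while Ezh1, its paralogue of resting tissue, had 32.9, 31.2 and 29.5 CPM in RPCs, against 79.3 and 103 CPM (log2 -1.67 ± 0.13). Cbx2, a chromodomain subunit, changed by log2 4.23 ± 0.23 and Cbx7, another, by log2 -4.05 ± 0.19. The nuclear lamins split as well: Lmnb1 changed by log2 4.04 ± 0.21 and Lmna by log2 -2.40 ± 0.32.

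DNA methylation genes were higher in RPCs for 7 of 16 tested (43.8%, beside 35.9% of all genes) and lower for 3 (18.8%, beside 24.9%). Uhrf1, which brings the maintenance methyltransferase to replicated DNA, had 472, 476 and 494 CPM in RPCs, against 0.0658 and 0.197 CPM in young cells, a ratio of 4056 with a 95% counting interval of 1388 to 19668. Dnmt1, that methyltransferase, had 189, 197 and 188 CPM in RPCs, against 46.6 and 38.9 CPM in young cells (log2 2.03 ± 0.12, adjusted p = 1.54e-06). Tdg, a glycosylase of active demethylation, changed by log2 2.72 ± 0.16, while the methyl-CpG binding genes Mbd1 and Zbtb38 were lower in RPCs (log2 -1.24 ± 0.10 and -1.56 ± 0.19). Without young replicate 2, 5 members were lower.

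**Figure D3:**
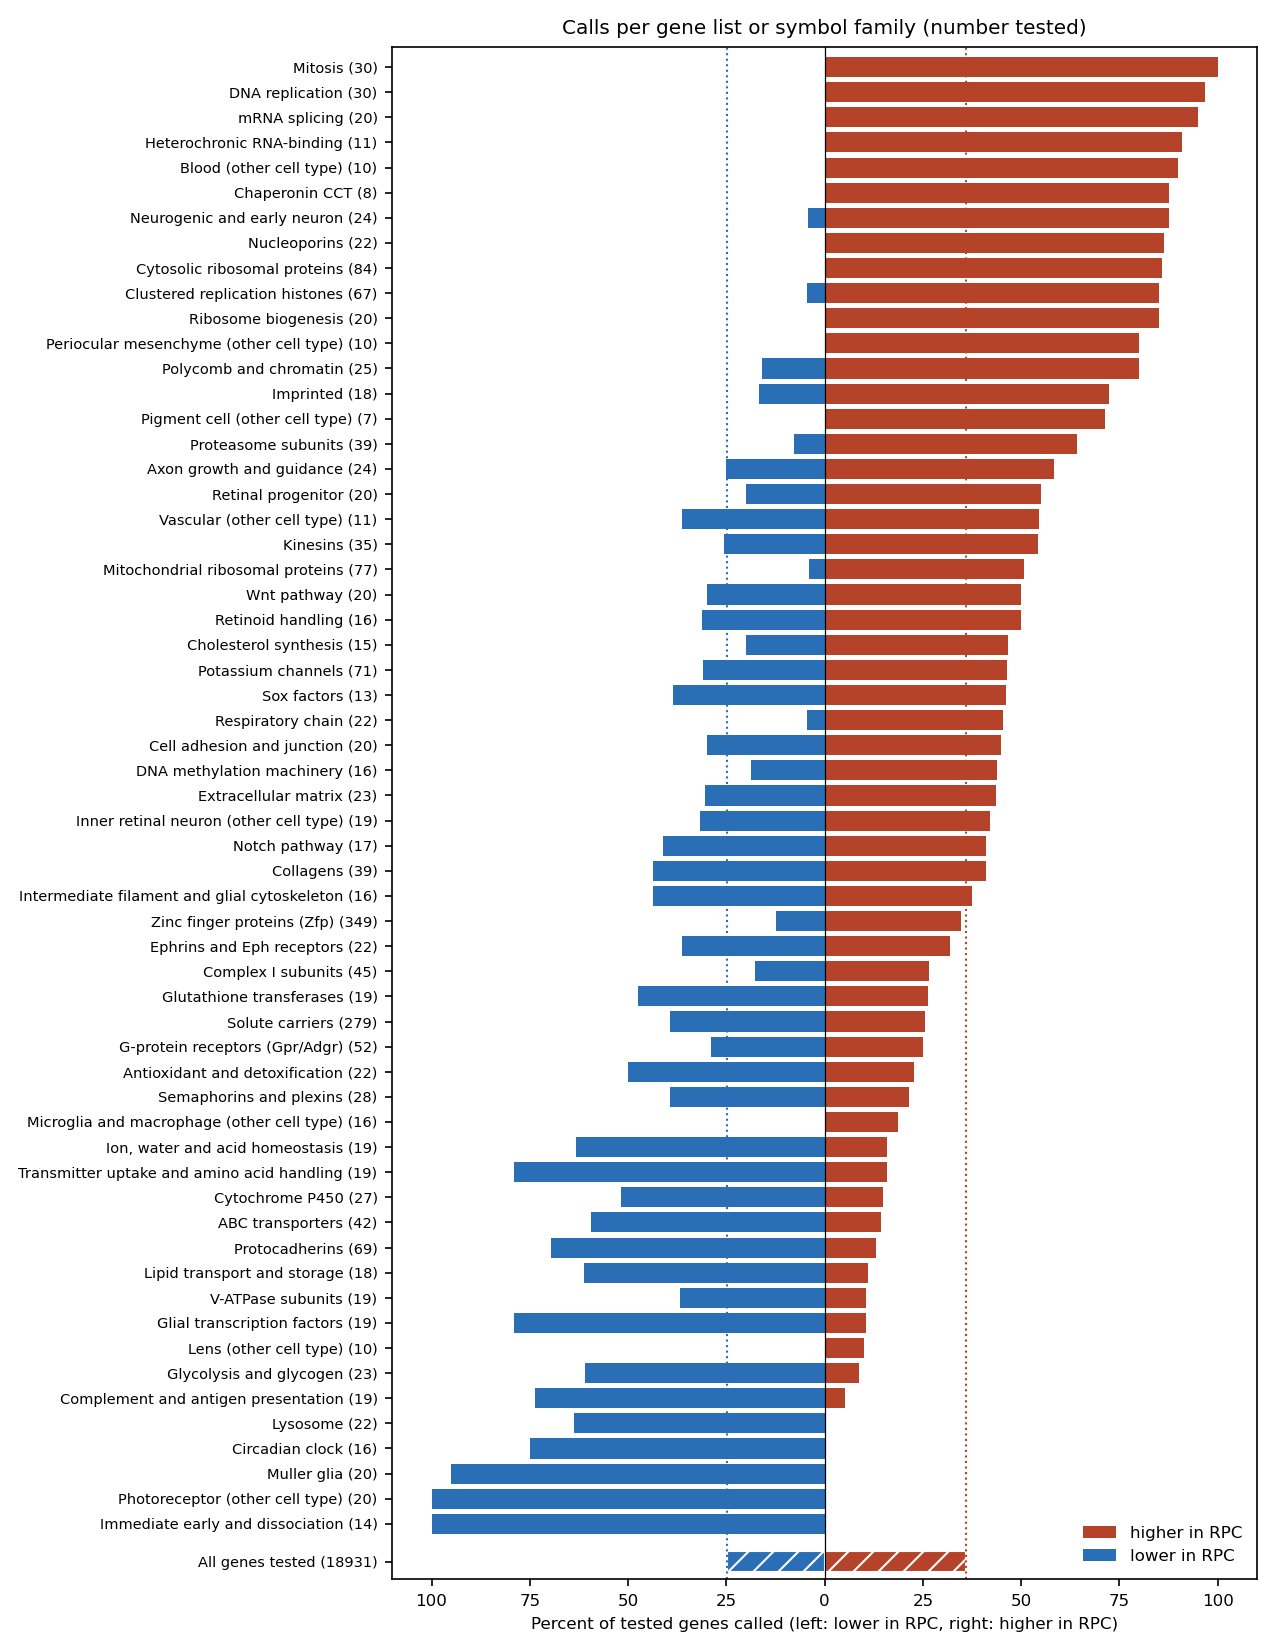
Percent of tested genes called higher in RPCs (right) or lower (left) in each gene list or symbol family, with the number tested in brackets. Dotted lines and the hatched bar mark the shares among all genes tested, 35.9% higher and 24.9% lower. Division, splicing and ribosome lists lie at the top and glial, photoreceptor and immediate early lists at the bottom.

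Genes of mature Müller glia were the counterpart in the other direction. Of 20 Müller glia genes 19 were lower in RPCs, beside 24.9% of all genes, and 0 were higher, with Vim as the exception. Glul, glutamine synthetase, which turns glutamate into glutamine, had 519, 551 and 528 CPM in RPCs, against 33663 and 26680 CPM in young cells (log2 -5.96 ± 0.29, adjusted p = 6.39e-07), where it took 3.02% of all counts. Rlbp1, the retinaldehyde carrier used for the sort, had 6.75, 3.98 and 2.71 CPM in RPCs, against 4240 and 3320 CPM. Clu, the secreted chaperone clusterin, changed by log2 -9.56 ± 0.41 and Abca8a, an ABC transporter gene, by log2 -11.90 ± 0.69. Dkk3, a secreted Dickkopf family protein, kept a high level in RPCs, at 932, 884 and 956 CPM, against 8242 and 8229 CPM in young cells (log2 -3.29 ± 0.15).

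Homeostatic functions of glia were lower in RPCs by group. Of 19 genes of ion, water and acid handling tested, 12 were lower and 3 higher, or 6 higher without young replicate 2. Kcnj10, the Kir4.1 potassium channel, had 0.275, 0.542 and 0.437 CPM in RPCs, against 1051 and 1008 CPM in young cells (log2 -11.41 ± 0.27), and Aqp4, the water channel, had 0.758, 0.994 and 0 CPM in RPCs, against 1480 and 1674 CPM (log2 -11.49 ± 0.50). Of 19 genes of transmitter uptake and amino acid handling, 15 were lower and 3 higher. Slc1a3, the glial glutamate transporter GLAST, had 65.7, 78.1 and 66.5 CPM in RPCs, against 2998 and 2791 CPM in young cells (log2 -5.50 ± 0.14). Slc6a11, a GABA transporter, changed by log2 -7.48 ± 0.31. Members in the other direction included Slc38a1, a glutamine transporter (405 to 423 CPM in RPCs, 211 and 212 CPM in young cells, log2 0.84 ± 0.09). Another was Slc6a13, a GABA transporter (9.99 to 13.6 CPM in RPCs and 0 in both young libraries). Slc6a13 stood at 2.14 to 8.28 CPM in the aged and NMDA Müller libraries.

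Glial transcription factors were lower in RPCs for 15 of 19 tested and higher for 2, or for 1 without young replicate 1 or without any 1 of the RPC libraries. The nuclear factor I genes, which direct late retinal progenitors and gliogenesis, were all lower. Nfia had 0.689, 1.17 and 0.786 CPM in RPCs, against 36.2 and 46.8 CPM in young cells (log2 -5.69 ± 0.22, adjusted p = 2.60e-07). In the aged and NMDA Müller libraries Nfia stood at 213 to 414 CPM, and its span contains another annotated gene. Nfix changed by log2 -7.93 ± 0.29, Nfic by log2 -2.86 ± 0.13 and Nfib by log2 -2.59 ± 0.15. Nfib had 36.6, 43.3 and 41.6 CPM in RPCs and 210 and 237 CPM in young cells, so both groups held it. Sox9, a factor of progenitors and glia, was also counted in both, with 47.7, 43.4 and 45.2 CPM in RPCs and 399 and 298 CPM in young cells (log2 -3.07 ± 0.17). The letters TTGGC or GCCAA, the shorter nuclear factor I motif, were in 9 of 13 promoter windows of Müller glia genes (69.2%), in 51.2% of genes at least 4-fold higher, in 51.2% of those at least 4-fold lower and in 50.2% of all. Other lists held it at like shares: 66.7% of mitosis, 62.5% of replication and 64.3% of photoreceptor windows, with ribosome biogenesis at 50%. This motif overlaps the reverse CCAAT box where ATTGGC occurs.

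Of 16 intermediate filament and glial cytoskeleton genes, 6 were higher in RPCs (37.5%, beside 35.9% of all genes) and 7 lower (43.8%, beside 24.9%). Nes, the progenitor filament nestin, had 269, 276 and 292 CPM in RPCs, against 23.0 and 10.3 CPM in young cells (log2 3.91 ± 0.36). Gfap, the glial filament that rises in gliosis, had 0.758, 1.63 and 1.05 CPM in RPCs, against 44.0 and 17.8 CPM in young cells (log2 -4.93 ± 0.47). Cd44, the hyaluronan receptor, changed by log2 -6.36 ± 0.23 and Crb1, a polarity protein of the outer limiting membrane, by log2 -4.40 ± 0.20, while Cdh11, a cadherin, was higher in RPCs (log2 1.55 ± 0.11). Of 69 protocadherin genes tested 48 were lower in RPCs and 9 higher, with sums of 962, 1065 and 1060 CPM in RPCs, against 2120 and 2747 CPM. The clustered members share exons, so single values are uncertain.

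Metabolic genes were called in unlike shares by pathway. Of 23 glycolysis and glycogen genes 14 were lower in RPCs and 2 higher, or 6 higher without young replicate 1. Aldoc, the aldolase of astroglia, had 2.82, 2.35 and 2.10 CPM in RPCs, against 1081 and 899 CPM in young cells (log2 -8.79 ± 0.22, adjusted p = 5.91e-08). The glycogen phosphorylases Pygm and Pygb changed by log2 -4.55 ± 0.26 and -3.01 ± 0.16, and Slc16a1, a lactate transporter, by log2 -2.63 ± 0.10. Pkm, pyruvate kinase, was among the higher members (log2 0.63), a call lost without young replicate 2 (adjusted p = 0.0789). Of 22 respiratory chain genes 10 were higher (45.5%, beside 35.9% of all genes) and 1 lower (4.55%, beside 24.9%). The lower member, Ndufv1 of complex I, had overlapping libraries and lost its call in 7 of 12 other settings. Cox5a, a cytochrome oxidase subunit, had 43.1, 37.0 and 40.8 CPM in RPCs, against 5.99 and 5.91 CPM in young cells (log2 2.63 ± 0.19). In the cholesterol pathway 7 of 15 genes tested were higher (46.7%, beside 35.9% of all genes) and 3 lower (20%, beside 24.9%). Hmgcs1, an early enzyme, changed by log2 1.74 ± 0.18.

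Most lipid transport and lysosome genes were lower in RPCs. Of 18 lipid transport genes 11 were lower and 2 higher (4 higher without young replicate 2). Apoe, the main lipid carrier of glia, had 51.2, 71.6 and 46.1 CPM in RPCs, against 3114 and 2571 CPM in young cells (log2 -5.80 ± 0.23). Of 22 lysosomal genes 14 were lower and 0 higher, and Gaa, the lysosomal glucosidase that degrades glycogen, changed by log2 -2.65 ± 0.09. Among antioxidant genes 11 of 22 were lower (50%, beside 24.9% of all genes) and 5 higher (22.7%, beside 35.9%). Gstm1, a glutathione transferase, changed by log2 -2.93 ± 0.16, and Gpx1, a glutathione peroxidase, by log2 2.38 ± 0.36.

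Clock, stress and immune genes were low in RPCs. Of 16 clock genes tested 12 were lower and 0 higher, or 1 higher without young replicate 2. Nr1d1, the clock repressor REV-ERBα, had 7.30, 7.23 and 6.64 CPM in RPCs, against 508 and 670 CPM in young cells (log2 -6.51 ± 0.20), and Hlf, a clock-controlled factor, changed by log2 -5.81 ± 0.17. The labels name no time of day for the collection. All 14 immediate early genes were lower, with sums of 249, 225 and 225 CPM in RPCs, against 9521 and 4246 CPM in young cells. Fos had 0.689, 0.452 and 0.350 CPM in RPCs, against 2189 and 934 CPM in young cells (log2 -11.69 ± 0.50). These genes are known to respond to cell dissociation, and only the young cells are described as sorted, so the sort and the cell type cannot be told apart here. Of 19 complement and antigen presentation genes tested 14 were lower and 1 higher (Cd55, a call lost whenever any 1 of the 5 libraries was left out). H2-K1, an MHC class I heavy chain, had 3.86, 3.89 and 3.58 CPM in RPCs, against 177 and 139 CPM in young cells (log2 -5.51 ± 0.29).

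The Notch pathway, which keeps progenitors undifferentiated and promotes the glial fate, had 7 of 17 genes higher in RPCs and 7 lower. Each share was 41.2%, beside 35.9% higher and 24.9% lower over all genes. Among receptors, Notch3 had 258, 306 and 255 CPM in RPCs, against 14.0 and 11.8 CPM in young cells (log2 4.26 ± 0.28), while Notch2 had 192, 219 and 184 CPM in RPCs, against 1176 and 1386 CPM (log2 -2.82 ± 0.15). The ligands Dll1, Dll3 and Dll4 were higher in RPCs, and Dll1 averaged 103 CPM in RPCs and 21.0 CPM in young cells (log2 2.19). The target genes Hes1, Hes5 and Hey2 were lower in RPCs, with Hes1 at 120, 112 and 105 CPM in RPCs, against 327 and 359 CPM in young cells (log2 -1.74 ± 0.23), and Hey2 at log2 -6.22 ± 0.25. Hey1, a paralogue of Hey2 listed among the glial factors, went the other way. It had 34.2, 23.5 and 33.6 CPM in RPCs, against 13.9 and 15.9 CPM in young cells (log2 0.91 ± 0.25). Rbpj, the DNA-binding partner of the receptors, was higher (log2 2.06 ± 0.22).

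In the Wnt pathway 10 of 20 genes tested were higher in RPCs (50%, beside 35.9% of all genes) and 6 lower (30%, beside 24.9%). Fzd3, a receptor, had 799, 702 and 789 CPM in RPCs, against 103 and 194 CPM in young cells (log2 2.24 ± 0.24), while Fzd7, another receptor, and Axin2, a target gene, were lower (log2 -1.70 ± 0.11 and -2.23 ± 0.19). Of 16 retinoid genes tested 8 were higher (50%, beside 35.9% of all genes) and 5 lower (31.2%, beside 24.9%), and the lower ones include the photoreceptor gene Rbp3 and the sort gene Rlbp1. Crabp2, a carrier of retinoic acid, had 155, 171 and 162 CPM in RPCs and 0 in both young libraries, and Aldh1a3, which makes retinoic acid, changed by log2 7.97 ± 0.85. Cyp26b1, which degrades retinoic acid, was lower (0.826, 2.98 and 0.524 CPM in RPCs, 107 and 46.7 CPM in young cells; log2 -5.91 ± 0.80).

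Axon guidance genes were higher in RPCs for 14 of 24 (58.3%, beside 35.9% of all genes) and lower for 6 (25%, beside 24.9%). Sema3a, a repulsive cue, had 74.9, 96.6 and 71.8 CPM in RPCs, against 0.0658 and 0 CPM in young cells, while the adhesion molecules Ncam1 (429, 337 and 407 CPM in RPCs, 2701 and 3214 CPM in young cells; log2 -3.04 ± 0.20) and Nrcam (log2 -3.28 ± 0.15) were lower. Of 23 matrix genes 10 were higher (43.5%, beside 35.9% of all genes) and 7 lower (30.4%, beside 24.9%). Sparc, a matrix glycoprotein of glia, changed by log2 -2.85 ± 0.12 and Timp3, an inhibitor of matrix proteases, by log2 -7.03 ± 0.34. Vcan, the proteoglycan versican, had 32.2, 45.7 and 43.1 CPM in RPCs and 0 in both young libraries, at least 335-fold higher. It stood at 21.3 to 115 CPM in the other Müller libraries, from aged and NMDA-treated mice.

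Markers of other cells moved with the groups, and their part in the results was not tested. All 20 photoreceptor genes were lower in RPCs, with sums of 37.5, 31.0 and 39.7 CPM in RPCs, against 15990 and 10850 CPM in young cells, and 6 of them had no count in any RPC library. Photoreceptor RNA was thus counted in the sorted young libraries. Blood genes were higher in RPCs for 9 of 10 and summed to 10810, 3277 and 1687 CPM in RPCs, against 12.4 and 1.08 CPM in young cells. Hbb-y, an embryonic globin, had 7716, 2225 and 1142 CPM in RPCs and accounted for most of that sum.

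Among the RPC libraries, the second had the highest sums of periocular mesenchyme, lens and pigment cell genes, and the source of this RNA was not tested. Periocular mesenchyme genes summed to 42.1, 181 and 96.7 CPM in RPCs, against 11.3 and 8.67 CPM in young cells. Of 10 tested, 8 were called higher (80%, beside 35.9% of all genes), or 7 without the second RPC library. Lens genes summed to 4.20, 87.6 and 4.11 CPM in RPCs, against 22.5 and 12.8 CPM in young cells. Only 1 of 10 was called higher (10%, beside 35.9% of all genes). It was Bfsp1, a call lost without either young library. Pigment cell genes summed to 52.0, 102 and 42.4 CPM in RPCs, against 6.32 and 21.4 CPM in young cells, with 5 of 7 tested called higher (71.4%, beside 35.9% of all genes). Microglia genes were higher for 3 of 16 (18.8%, beside 35.9% of all genes) and lower for 0, and the number higher changed with the young library left out. They summed to 78.2, 95.4 and 73.8 CPM in RPCs, against 13.3 and 107 CPM in young cells. Of 11 vascular genes 6 were higher in RPCs (3 in a fit of the 5 libraries alone) and 4 lower. These shares were 54.5% and 36.4%, beside 35.9% and 24.9% of all genes. The endothelial genes Pecam1, Cdh5, Cldn5 and Tek had no count in young cells and averaged at most 2.53 CPM in RPCs. The lower members were Flt1, Kdr, Pdgfrb and Vtn, and Kdr, a VEGF receptor, had 243, 219 and 237 CPM in RPCs, against 2779 and 2634 CPM in young cells (log2 -3.67 ± 0.17). Of 19 inner retinal neuron genes tested 8 were higher (42.1%, beside 35.9% of all genes) and 6 lower (31.6%, beside 24.9%). Thy1 of ganglion cells was lower (log2 -9.47 ± 0.42), and Pou4f1 of ganglion cells was at 26.5, 14.2 and 21.1 CPM in RPCs and 0 in both young libraries. Xist, the RNA of the inactive X, stood at 886, 1783 and 2818 CPM in RPCs and at 2723 and 0.493 CPM in young cells. Kdm5d, a Y-linked gene chosen after its values were seen, had 75.4, 57.7 and 47.8 CPM in RPCs, against 0 and 118 CPM in young cells.

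DNA methylation at gene starts was available from reduced representation bisulfite sequencing (RRBS) of 3 other RPC and 3 other young libraries, and it was not used by the RNA contrast. Mean methylation per library was taken over CpG positions within 1000 bases of the start, for 7847 autosomal starts with at least 5 positions covered by 10 reads or more in all 6 libraries. The strands of a CpG count as separate positions. Each gene was given a single start, the outermost of its promoter windows. For some genes, among them Rlbp1, Nfia and Stra6, that start lies inside the annotated span. Most starts were low in both groups, with medians of 1.39% in RPCs and 3.53% in young cells and a median difference of -1.96 points. A start at least 10 points more methylated in RPCs was seen for 36 of 877 genes whose RNA was at least 4-fold lower in RPCs (4.1%). The same was seen for 11 of 1293 genes at least 4-fold higher (0.851%), for 40 of 2858 not called (1.4%) and for 1.29% of all. A start at least 10 points less methylated in RPCs was seen for 23 of the genes higher in RNA (1.78%), for 13 of the genes lower in RNA (1.48%) and for 0.777% of all. Most starts of either RNA direction thus differed by less than 10 points. Among them were Glul (1.59% ± 0.741 in RPCs and 3.90% ± 0.859 in young cells; SD, n = 3 each) and Slc1a3 (1.34% ± 1.05 in RPCs and 3.72% ± 0.860 in young cells; SD, n = 3 each).

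**Figure D4:**
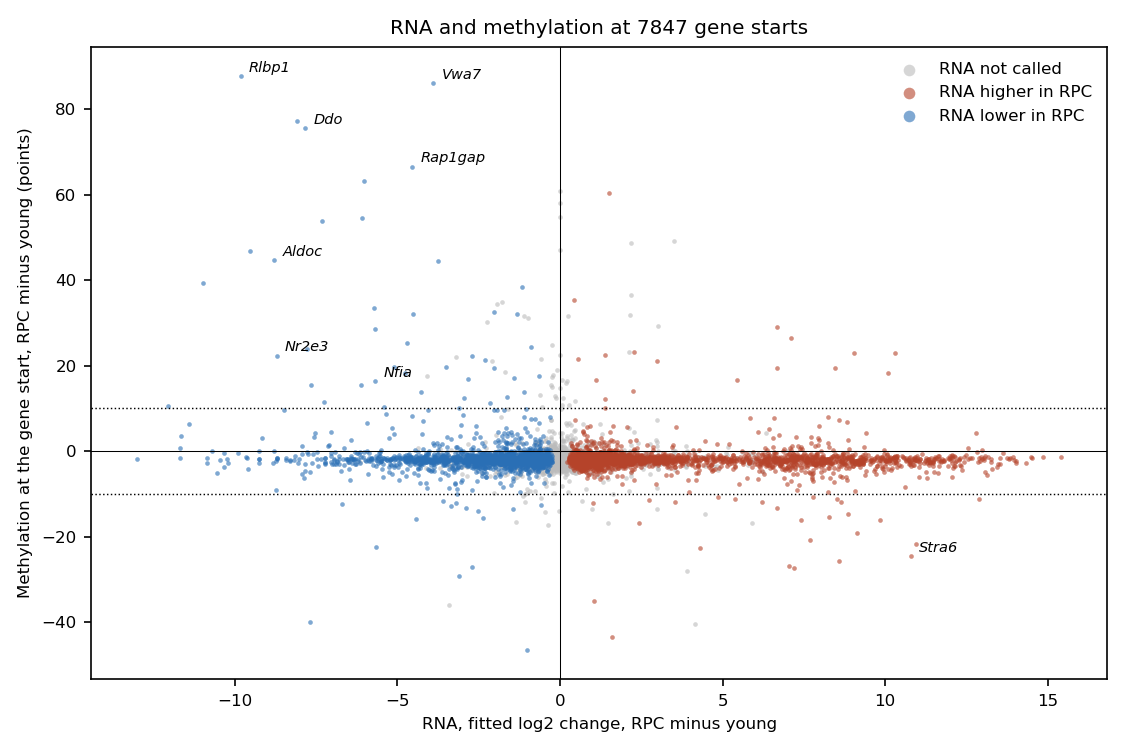
Difference in methylation at the gene start (points, RPC minus young) against the fitted log2 change in RNA for 7847 genes, coloured by RNA call, with dotted lines at 10 points in either direction. Most genes lie near -2 points, and Rlbp1, Vwa7, Ddo, Rap1gap and Aldoc lie at the upper left, with lower RNA and higher methylation in RPCs.

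With 3 libraries in each group the two-sided exact permutation p cannot go below 0.1, so no start is called. At Rlbp1 on chromosome 7, the start used is base 79387027, on the minus strand of a span annotated from 79374865 to 79392250. The 7 positions measured lie 454 to 523 bases after that start. Their mean methylation was 97.4%, 90.5% and 92.9% in RPCs, against 3.43%, 10.2% and 3.69% in young cells. Coverage there was 12 to 45 reads in RPCs and 68 to 81 reads in young cells. The reporter is named for the Müller mice, so its construct and the cell type cannot be told apart at this site. Aldoc had 72.9%, 71.6% and 61.6% in RPCs, against 17.6%, 28.9% and 25.4% in young cells. Nfia had 14.4%, 18.5% and 26.3% in RPCs, against 0.773%, 5.13% and 3.93% in young cells. Kcnj10 differed by less than 10 points, with 10.1%, 10.1% and 12.7% in RPCs and 3.83%, 5.80% and 4.39% in young cells.

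Of the 36 genes with lower RNA and higher start methylation in RPCs, Vwa7, a von Willebrand factor A domain gene, and Ddo, which encodes D-aspartate oxidase, differed by 86.1 and 75.5 points. These genes, and the window of Vwa7, were chosen after their values were seen. Vwa7 had 88.2%, 91.2% and 94.0% in RPCs, against 5.52%, 3.98% and 5.68% in young cells, and its RNA had 1.65, 3.61 and 1.05 CPM in RPCs, against 23.6 and 33.6 CPM (log2 -3.90 ± 0.49). Ddo had 81.2%, 91.3% and 91.8% in RPCs, against 13.6%, 17.7% and 6.48% in young cells. The window of Vwa7 is shown because its 11 measured positions, in the 8 CpGs in capitals, all fall inside it, and the position 131 bases before the start was at 86.6%, 97.2% and 79.4% in RPCs, against 2.7%, 0.39% and 0.36% in young cells.
Vwa7, GRCm38.p6, chr17:35016329-35016628, plus strand: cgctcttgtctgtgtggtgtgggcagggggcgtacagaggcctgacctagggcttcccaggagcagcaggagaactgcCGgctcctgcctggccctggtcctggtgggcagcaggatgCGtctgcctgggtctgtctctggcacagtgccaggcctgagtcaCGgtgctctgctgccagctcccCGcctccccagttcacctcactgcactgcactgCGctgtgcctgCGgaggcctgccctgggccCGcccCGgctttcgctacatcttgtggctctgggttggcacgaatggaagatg

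In the opposite direction, Tfap2a, a transcription factor gene of surface ectoderm and amacrine cells, had 0.144%, 2.91% and 0.944% methylation in RPCs, against 26.5%, 28.2% and 26.3% in young cells, and its RNA was at 2.07 to 4.16 CPM in RPCs and 0 in both young libraries. Stra6, the receptor for the retinol carrier, had 1.79%, 14.2% and 11.99% in RPCs, against 58.0%, 24.4% and 18.99% in young cells, where 1 library lay far above the others. Imprinted starts did not follow their RNA in 1 direction. Plagl1, higher in RNA in RPCs, had 39.8%, 47.5% and 30.8% in RPCs, against 9.45%, 19.4% and 25.9% in young cells. Meg3, lower in RNA, had 46.4%, 30.2% and 17.7% in RPCs, against 4.11%, 15.7% and 7.59% in young cells. Both starts were thus more methylated in RPCs. The start of Grb10, higher in RNA, was low in both groups, at 1.33% on average in RPCs and 3.83% in young cells. Tfap2a was likewise chosen after its values were seen.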

How the data were processed

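RNA was measured in 10 libraries and DNA methylation in RRBS libraries of the same groups. The authors deposited 1 table of raw counts per gene symbol. Per the file headers, the authors' methylation files give, for each CpG position and strand, the coverage and the percent of reads with C. The submitters' processing notes list methylKit 1.4.0 and Bismark 0.16.3, then HISAT2 2.0.4 and also Trim Galore 0.4.3, with the builds mm10 and GRCm38 and without roles. The counting tool and its strand setting are not given in the sources used here, so overlapping and antisense genes cannot be told apart.

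Counts were fitted with edgeR 4.0.16 in R 4.3.3 by the quasi-likelihood test, with TMM scaling and filterByExpr, over all 10 RNA libraries with group as the only term, so that groups share 1 estimate of the spread. The other groups were Müller cells from mice given NMDA and from mice aged 1.5 years. P-values were adjusted by Benjamini-Hochberg over the 18931 genes tested, and genes with an adjusted p under 0.05 were called. Where a group had 0 counts, the fold is a bound against 3 counts pooled over the group. With 1 to 3 pooled counts, the ratio of CPM is given with an exact 95% interval. Bounds and intervals cover counting error only. The script was tested on simulated data.

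Genes were named by a rule: the 10 highest and 10 lowest changes (groups not overlapping, mean level from 8 CPM up), the 10 most abundant with at least 4-fold change in each direction, up to 4 members per list in the main direction and up to 2 in the other, a fixed set, and, where singled out, genes in a count of 5 or fewer. Other genes named serve to complete a family or pathway. The members and the lists were chosen with earlier results of these data known. Alternatives were scaling by RLE or by upper quartile, fitting without a filter or with a filter of 5 CPM in 2 libraries, DESeq2 1.42.0, a fit of the 5 libraries alone, a test against 2-fold, a replicate block, each library left out in turn, and for methylation a minimum of 20 reads or 500 bases.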

Additional observations from a re-analysis of the deposited data

How the results depend on the processing

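No named gene's called change turned its sign under the alternatives run, but the balance of at least 4-fold calls did turn. Counts of genes were most affected by the test against 2-fold, which called 4468 higher and 2934 lower, and by the filter of 5 CPM. Under that filter 1918 genes were at least 4-fold higher and 2061 at least 4-fold lower, against 4046 and 2464 in the fit reported. There 51.7% of called genes were higher, against 59% in the fit reported. Leaving out 1 library at a time gave 5985 to 8738 genes higher, 4020 to 5787 lower, 3647 to 5481 at least 4-fold higher and 2206 to 3010 at least 4-fold lower. The median change of all genes was 0.53 without young replicate 1 and 0.77 without young replicate 2, against 0.30 with both. With the replicate number as a block, 5954 genes were higher and 3948 lower. RPC and young libraries of the same number correlated in their deviations at 0.0447 and 0.026. With 2 young libraries these deviations mirror each other, so the values cannot tell whether the numbers pair libraries. For methylation, starts within 500 bases lowered the share less methylated in RPCs among genes higher in RNA to 0.946%. With 500 bases and with 20 reads, the share more methylated was 3.23% and 2.92% among genes lower in RNA. It was 0.43% and 0.515% among genes higher in RNA, and 0.867% and 0.923% among all. Leaving out 1 methylation library gave 3.88% to 4.22% for starts more methylated among genes lower in RNA, 1.21% to 1.35% among all, 1.78% to 2.01% for starts less methylated among genes higher in RNA, and a median difference of -2.257 to -1.632 points. Pairing the methylation libraries by number leaves each difference of means, and so these shares, as they are. Of 228 named genes tested, 216 kept their call in every setting in which they were tested. The test against 2-fold was run for counts of genes only, and the filter of 5 CPM left out some named genes. The causes of these changes were not tested. The young libraries were as deep as the RPC libraries but detected fewer genes, which limits what a count of 0 there can show.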
